A study of Homo sapiens with 6 samples.

Results

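The genes described here encode the proteins of the cytosolic ribosome in A549, a human lung adenocarcinoma cell line. They were chosen by name, as the protein-coding entries of the deposited count table whose symbol is RPL or RPS with a number, together with RPLP0, RPLP1, RPLP2 and RPSA. This gave 84 of the 29889 entries, which carry 83 symbols since RPL41 has 2 identifiers, with 52 genes of the large subunit and 32 of the small subunit. FAU, RACK1 and RPL36AL belong to the ribosome or are close relatives of its genes but fall outside this naming rule, and they are given separately. The cells were transfected with pIRES-hrGFP-1a-CELF6, a plasmid that expresses the RNA-binding protein CELF6 (CELF6-OE), or with the empty plasmid (Control). All cultures received Lipofectamine 2000 and were harvested after 48 h, and polyadenylated RNA was sequenced from 3 biological replicates per group. Transfection was transient, and the share of cells that took up a plasmid is not given in the sources used here.

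Each ribosome carries 1 copy of most of its proteins, so cells make them in near-equal amounts. Ribosomal protein mRNAs are among the most abundant in a growing cell, and most of them begin with a C followed by a run of pyrimidines, the 5′ terminal oligopyrimidine (TOP) motif, through which the mTOR pathway and LARP1 set their translation. Several ribosomal proteins also act away from the ribosome, and RPL5, RPL11, RPL23 and RPS7 can bind MDM2 and so stabilise p53. A few members have paralogs of lower abundance that can take their place in the ribosome.

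Start sites from RefSeq (GRCh38.p14) were found for 66 of the members tested. The windows below hold 15 bases before the start and 15 bases from the start on, 5′ to 3′, and capitals mark the first pyrimidine run of 5 or more bases that begins with a C within 10 bases of the start. The first 5 belong to the most abundant members with an entry, and the last 2 belong to called members, 1 higher and 1 lower in CELF6-OE.
RPS16: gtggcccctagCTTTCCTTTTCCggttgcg
RPL41: cggaacttcgCCTTTCTCTCggccttagcg
RPL39: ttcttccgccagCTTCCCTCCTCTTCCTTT
RPL13A: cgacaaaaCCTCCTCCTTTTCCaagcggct
RPL19: tgggctCTCCCCTTCgcagataatgggagg
RPL7L1: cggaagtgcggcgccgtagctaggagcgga
RPS27L: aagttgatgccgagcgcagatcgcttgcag

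These windows lie at chr19:39435935-39435964 on the minus strand for RPS16, chr12:56116618-56116647 on the plus strand for RPL41, chrX:119791616-119791645 on the minus strand for RPL39, chr19:49487593-49487622 on the plus strand for RPL13A and chr17:39200268-39200297 on the plus strand for RPL19. Those of RPL7L1 and RPS27L lie at chr6:42879601-42879630 on the plus strand and chr15:63157463-63157492 on the minus strand. A C at the annotated start followed by at least 4 pyrimidines was present in 43 of the 66 members (65.2%), against 4.04% of 27305 RefSeq promoters. Within 10 bases of the start on the sense strand, such a run was present in 56 members (84.8%) against 33.3% of all promoters. RPL19 has its run just upstream of the annotated start, whereas neither RPL7L1 nor RPS27L has such a run in its window. CCGGAAG, searched on both strands over 300 bases, occurred in 23 members (34.8%) against 10.7% of all promoters, and TATAA in the 40 bases before the start occurred in 7 (10.6%) against 4.67%. The 43 members with the motif at the start had a median log2 fold change of -0.02 between CELF6-OE and Control and 1 called gene, and the 23 without it had a median of 0.04 and 4 called genes. Over all genes tested, 18.0% were called in either direction. The called members RPL5, RPL7 and RPL23 are in neither group, as no start site was used for them.

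The libraries held 33748328 to 35413404 counts on genes with the CELF6 plasmid and 36422617 to 37920700 with the empty one. The targeted gene CELF6 was covered by 18646, 20789 and 11571 counts after transfection of its plasmid, compared with 0 counts in each Control library. All 6 epithelial keratin and adhesion markers were above 1 FPKM (fragments scaled to gene length and sequencing depth), whereas none of the 6 alveolar type II markers reached this level. Summed TMM-scaled CPM (counts scaled to a common library size) of the epithelial markers reached 10505 to 12184 with CELF6-OE, compared with 13061 to 14780 in Control. Of the leukocyte markers, CD14 and CD68 were above 1 FPKM, and the summed CPM of the list lay between 13.7 and 16.6 with CELF6-OE, compared with 24.8 to 26.9 in Control. None of the listed fibroblast and endothelial markers was above 1 FPKM, with summed CPM of 1.69 to 2.52 after the CELF6 plasmid, compared with 2.90 to 3.46 in Control. The part of these differences in the values below was not tested. Of the 84 members, 82 passed the filter on low counts. RPL3L, the muscle paralog of RPL3, had 1 count in all, and the second RPL41 entry had 1 to 7 counts per library.

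Most members were highly expressed in every library. Of the 82, 74 had a mean of at least 100 FPKM. RPS16 had the highest mean, and it measured 3434, 3155 and 3268 FPKM in CELF6-OE and 3183, 3287 and 3626 FPKM in Control. It was followed by RPS2 with a mean of 3139 FPKM over the 6 libraries, RPL41 with 3092, RPL39 with 3008, RPL13A with 2807 and RPL19 with 2453. RPS2 spread from 2702 to 3340 FPKM within Control alone, so that the order of these neighbours does not stand beyond their spread. This order also rests on the gene length behind the FPKM, and per kilobase of the canonical transcript RPS2 ranked 1st and RPS16 4th. At the other end stood RPL17 with a mean of 12.8 FPKM and RPS10 with 14.2 FPKM, each of which overlaps a read-through gene. RPS10 counts were 559, 568 and 483 with CELF6-OE, compared with 513, 548 and 451 in Control, while RPS10-NUDT3, which shares its exons, was counted 21522 to 23607 times with CELF6-OE and 21816 to 26352 times in Control. RPL17-C18orf32 had 0 to 2 counts per library. How reads in exons shared with such genes were assigned is not given in the sources used here, so the levels of RPS10 and RPL17, and their fold changes, are uncertain.

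Most ribosomal protein genes differed little between CELF6-OE and Control. Of the 82 members tested, 7 were up-regulated (RPL5, RPL23, RPL7L1, RPL7, RPL17, RPS3A and RPL6) and 1, RPS27L, was down-regulated at an adjusted p under 0.05 (edgeR's quasi-likelihood test, Benjamini-Hochberg over 15847 genes). The up-regulated members were 8.54% of those tested, against 6.47% of all genes, and the down-regulated member was 1.22%, against 11.5% of all genes. By the stricter rule of an unadjusted p under 0.01 and a change of at least 1.5-fold, 0 members were called in edgeR, DESeq2 and limma-voom, while 1.36% of all genes were called higher and 5.91% lower in edgeR. With an adjusted p under 0.05 and the same fold, edgeR also called 0 members, while 1.35% of all genes were called higher and 5.82% lower. At an unadjusted p under 0.05, edgeR gave 12 members higher (14.6%, against 14.8% of all genes) and 3 lower (3.66%, against 18.0%). Scaled counts did not overlap between groups for 13 members that were higher in CELF6-OE (15.9%, against 17.9% of all genes) and for 5 that were lower (6.10%, against 20.0%). The calls changed when single libraries were left out, among the members and over all genes. Without CELF6-OE replicate 1 or without Control replicate 2, RPL5 was the only member called higher, and without Control replicate 1, 8 members were called lower. Over all genes, 1025 were called higher with all libraries, 378 without CELF6-OE replicate 1 and 287 without Control replicate 2. Called lower were 1820 genes with all libraries and 2370 without Control replicate 1. In bulk RNA, a change in a part of the cells and a smaller change in all cells cannot be told apart.

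The median log2 fold change of the members was 0.008 (interquartile range -0.08 to 0.07, 43 above 0 and 39 below), and over all genes tested it was 0.01 (interquartile range -0.19 to 0.18). The median of the members was -0.06 without Control replicate 1 and 0.05 without Control replicate 3, so its sign rested on single libraries. The large subunit had a median of 0.01 and the small subunit 0.0008. The size of the log2 fold change was under 0.1 in 55 members and under 0.2 in 73, and the full range was -0.37 to 0.29. For each of the 74 members not called, the 95% interval of the log2 fold change stayed within the log2 of 1.5, which is 0.58, and the farthest bound was 0.37.

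**Figure D1:**
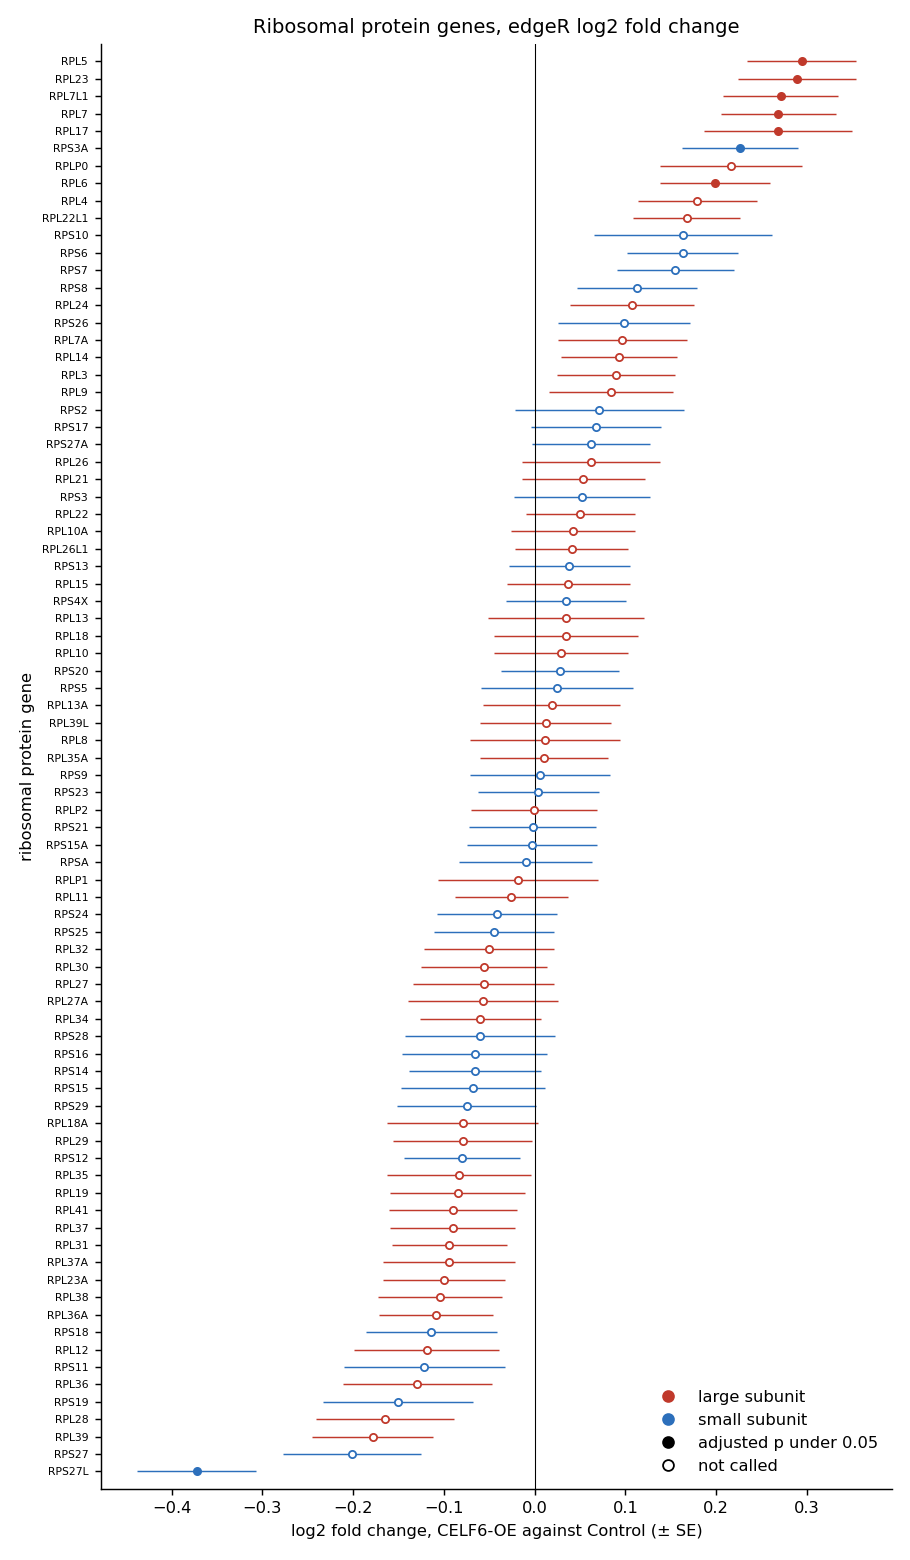
Log2 fold change (horizontal axis, ± SE) of CELF6-OE against Control for the 82 members tested, in order of fold change. Red marks the large and blue the small subunit, and filled points had an adjusted p under 0.05. RPS27L at -0.37 stands below the rest, and the 7 filled points above 0 lie between 0.20 and 0.29.

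RPL5 and RPL11 enter the large subunit together with 5S rRNA, and the same complex can bind MDM2. RPL5 (ENSG00000122406, GRCh38 chromosome 1, 92832013 to 92841924) measured 786, 753 and 737 FPKM in CELF6-OE and 623, 615 and 581 in Control, so that every CELF6-OE library was above every Control library. It rose by 22.6% (log2 fold change 0.29 ± 0.060 SE, adjusted p = 0.00713 in edgeR's quasi-likelihood test) and was called under all 16 alternative settings. RPL11 measured 1406, 1360 and 1383 FPKM in CELF6-OE and 1353, 1397 and 1388 in Control, and these groups overlapped. Its log2 fold change was -0.03 ± 0.062, with an adjusted p of 0.806 in edgeR. RPL5 amounted to 55.9%, 55.4% and 53.3% of RPL11 by FPKM in CELF6-OE and to between 41.9% and 46.1% in Control. This pair was set side by side after its values were seen, so it is given with no test.

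RPL23, another MDM2-binding protein of the large subunit (chromosome 17, 38847860 to 38853764), measured 533, 494 and 509 FPKM in CELF6-OE and 408, 409 and 413 in Control. The groups did not overlap, and the Control libraries lay within a narrow range. RPL23 rose by 22.2% (log2 fold change 0.29 ± 0.065, adjusted p = 0.0113 in edgeR) and was called under 14 of 16 alternatives. RPS7, the small-subunit protein among the 4 listed here for binding MDM2, was higher in every CELF6-OE library, with 1449, 1377 and 1376 FPKM against 1215, 1243 and 1238. Its log2 fold change of 0.15 ± 0.064 was not called (adjusted p = 0.119 in edgeR). Of this list of 4, 2 were up-regulated and 2 were not called, beside 6.47% of all genes up-regulated, and a list of this size says little about the group.

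RPL7 and RPL6 are core proteins of the large subunit. RPL7 (ENSG00000147604) measured 471, 442 and 436 FPKM in CELF6-OE and 385, 369 and 344 in Control, and RPL6 (ENSG00000089009, chromosome 12, 112405189 to 112418838) measured 1204, 1159 and 1150 FPKM in CELF6-OE and 1009, 1008 and 982 in Control. Both sets of libraries were separate. RPL7 rose by 20.4% (log2 fold change 0.27 ± 0.064, adjusted p = 0.0149 in edgeR) and RPL6 by 14.8% (0.20 ± 0.061, adjusted p = 0.0432). RPL7 was called under 12 of 16 alternatives. RPL7L1, a paralog of RPL7 known from the assembly of the large subunit in the nucleolus, was less abundant (chromosome 6, 42879616 to 42889925), with 29.2, 31.0 and 28.2 FPKM in CELF6-OE and 26.0, 23.4 and 22.5 in Control. It rose by 20.6% (0.27 ± 0.063, adjusted p = 0.0139 in edgeR) and was called under 13 of 16 alternatives. RPL7L1 amounted to 6.56% ± 0.40 (SD, n = 3) of RPL7 in CELF6-OE and 6.54% ± 0.21 in Control.

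RPL17 (chromosome 18, 49488453 to 49492508), a protein near the exit of the nascent peptide tunnel, was counted 632, 614 and 585 times in CELF6-OE and 527, 551 and 522 times in Control. It is a low-count member, and its 2 pseudogenes in the table had a mean of 14.0 counts, equal to 2.45% of its own. RPL17 rose by 20.4% (log2 fold change 0.27 ± 0.081), close to the threshold at an adjusted p of 0.0430 in edgeR, and it was called under 9 of 16 alternatives. RPS3A (chromosome 4, 151099624 to 151104642), a protein of the small subunit that contacts initiation factors, was the only small-subunit member called higher in this fit. It measured 966, 893 and 898 FPKM in CELF6-OE and 769, 771 and 769 in Control, which did not overlap. RPS3A rose by 17.0% (0.23 ± 0.064, adjusted p = 0.0327 in edgeR), a call that held under 10 of 16 alternatives, as did that of RPL6.

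**Figure D2:**
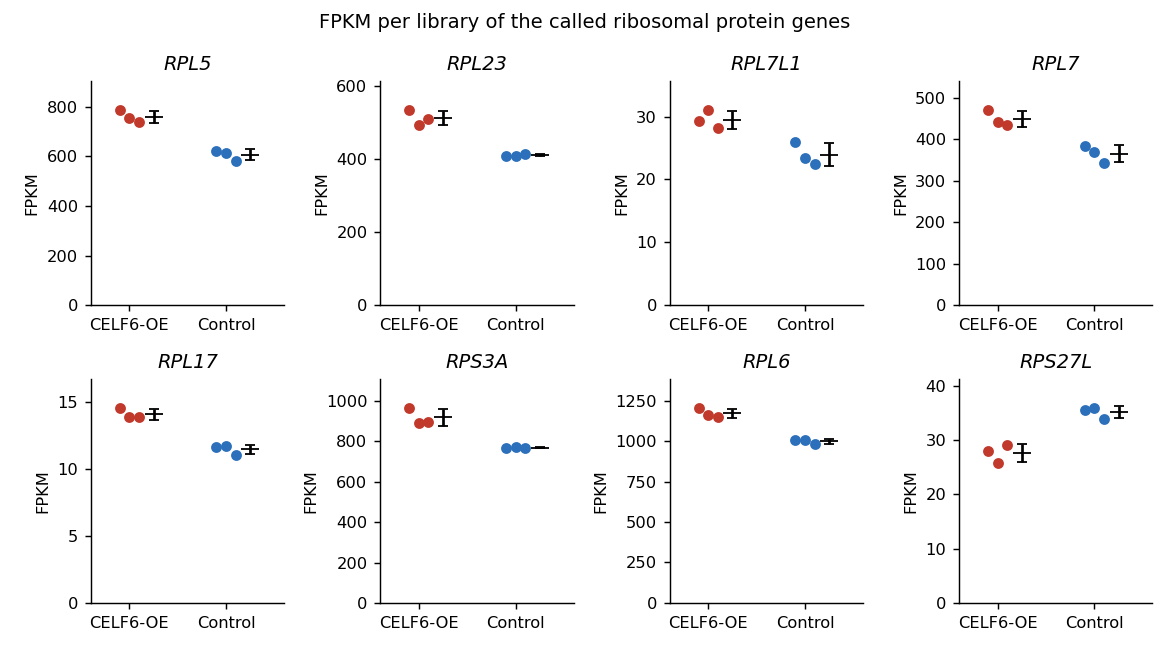
FPKM per library (vertical axis, from 0) of the 8 called members in CELF6-OE (red) and Control (blue). Black bars are the mean ± SD of 3 libraries. In each panel the groups are separate, with CELF6-OE above Control except for RPS27L.

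RPS27L, a paralog of RPS27 and a known target gene of p53, changed in the other direction. It measured 28.0, 25.8 and 29.1 FPKM in CELF6-OE and 35.5, 35.9 and 33.9 in Control, and every CELF6-OE library lay below every Control library. RPS27L (ENSG00000185088, chromosome 15, 63125872 to 63158021) fell by 22.8% (log2 fold change -0.37 ± 0.066, adjusted p = 0.00292 in edgeR's quasi-likelihood test), the largest change among the 82 members, and it was called under all 16 alternatives. RPS27 itself measured 1732, 1532 and 1696 FPKM in CELF6-OE and 1792, 1865 and 1926 in Control. These groups did not overlap either, but the log2 fold change of -0.20 ± 0.076 was not called (adjusted p = 0.0892 in edgeR, 0.0165 to 0.307 over the alternatives).

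For 5 paralogs, the FPKM was set as a percent of that of the partner within each library, which needs no scaling between libraries. RPS27L amounted to 1.67% ± 0.050 (SD, n = 3) of RPS27 in CELF6-OE and 1.89% ± 0.12 in Control. RPL22L1 amounted to 48.4% ± 1.01 of RPL22 in CELF6-OE and 44.6% ± 0.53 in Control, and RPL39L to 1.14% ± 0.016 of RPL39 in CELF6-OE and 0.996% ± 0.055 in Control. In each of these 3 pairs the groups were separate, at the smallest p that 3 libraries against 3 allow (p = 0.1, two-sided exact permutation test, adjusted p = 0.167 over 5 pairs), so no difference passed 0.05. RPL26L1 ranged from 57.4% to 65.2% of RPL26 in CELF6-OE and from 57.4% to 68.3% in Control (p = 0.9, exact permutation test), and RPL7L1 against RPL7 gave p = 1.0 in the same exact test. The genes behind the ratio of RPL39L moved little for the paralog (log2 fold change 0.01 ± 0.072) and more for RPL39 (-0.18 ± 0.067, adjusted p = 0.0878 in edgeR), and neither was called. For RPL22L1, the log2 fold change was 0.17 ± 0.059 (adjusted p = 0.0745), and for RPL22 it was 0.05 ± 0.060.

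**Figure D3:**
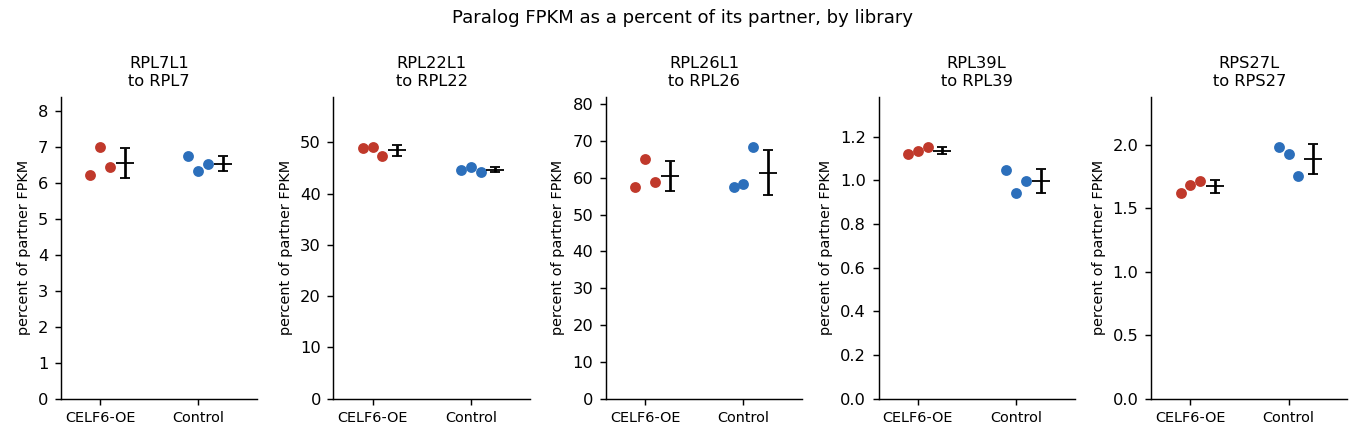
FPKM of 5 paralogs as a percent of the FPKM of the partner (vertical axis, from 0) by library, in CELF6-OE (red) and Control (blue), with mean ± SD of 3 libraries in black. The groups are separate for RPL22L1, RPL39L and RPS27L and overlap for RPL7L1 and RPL26L1.

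The P-stalk of the large subunit recruits translation factors and consists of RPLP0 with RPLP1 and RPLP2. RPLP0 measured 1584, 1452 and 1435 FPKM in CELF6-OE and 1191, 1252 and 1323 in Control, and was higher in every CELF6-OE library. Its log2 fold change of 0.22 ± 0.078 was not called (adjusted p = 0.0794 in edgeR, 0.0114 to 0.261 over the alternatives). RPLP1 and RPLP2 had log2 fold changes of -0.02 ± 0.088 and -0.0008 ± 0.069, and their groups overlapped. Within Control, RPLP1 ranged from 1805 to 2168 FPKM.

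Of 8 members listed for a role outside the ribosome or another single feature, none was called in the fit with all libraries. RPS6, the substrate of S6 kinases, was higher in every CELF6-OE library, with 698, 680 and 659 FPKM against 613, 602 and 569 in Control, at a log2 fold change of 0.16 ± 0.061 (adjusted p = 0.0891 in edgeR). RPS19, known as a gene mutated in Diamond-Blackfan anaemia, had a log2 fold change of -0.15 ± 0.082 (adjusted p = 0.230), and it passed the threshold when Control replicate 1 was left out (adjusted p = 0.0303). The other 6 had smaller values. They were 0.02 ± 0.076 for RPL13A of the interferon-gamma-activated inhibitor complex, 0.05 ± 0.075 for RPS3, which also takes part in NF-kB signalling, and 0.06 ± 0.065 for RPS27A, which is made as a fusion with ubiquitin. For the X-linked genes RPS4X and RPL10 they were 0.03 ± 0.066 and 0.03 ± 0.074, and for the laminin-binding RPSA -0.01 ± 0.073.

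The fold changes of the members went with the length of their coding sequence. Among the 27 members with the longest coding sequences (576 to 1281 bases), 25 had a log2 fold change above 0, with a median of 0.08. Among the 27 with the shortest (75 to 390 bases), 6 were above 0, with a median of -0.06. The 28 members between them (396 to 564 bases) had 12 above 0 and a median of -0.05. Called in either direction were 5 of the 27 longest, 2 of the 28 between and 1 of the 27 shortest, beside 18.0% of all genes tested. Across the 82 members, Spearman's rho between log2 fold change and coding length was 0.60, and it was 0.65 in the 50 members of the large subunit and 0.52 in the 32 of the small subunit. These genes share the same 6 libraries and are not independent replicates, so the coefficients are given as a description. RPL4, with the longest coding sequence of 1281 bases, measured 855, 804 and 806 FPKM in CELF6-OE and 707, 715 and 711 in Control, and RPL41, with the shortest of 75 bases, measured 3181, 2888 and 3014 in CELF6-OE and 3109, 3120 and 3239 in Control. RPL4 was separate between groups and RPL41 was not. Neither was called, at log2 fold changes of 0.18 ± 0.065 and -0.09 ± 0.070.

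The same coefficient was 0.08 over 13237 genes with a coding length, 0.09 over 551 other protein-coding genes with at least 100 FPKM and 0.20 over 78 mitochondrial ribosomal protein genes. Over the 16 alternatives it was 0.52 to 0.67 for the members, and leaving out Control replicate 1 gave the lowest value. It was 0.59 with an offset for gene length and 0.67 with an offset for GC content. The gene length in that offset was the one implied by counts and FPKM, not the coding length. The value of 0.59 is therefore not a correction for coding length. Against the length of the whole canonical transcript, the coefficient of the members was 0.17. The median deviation from the mean over all libraries, the 27 longest minus the 27 shortest, was 0.07, 0.09 and 0.04 in CELF6-OE and -0.07, -0.06 and -0.06 in Control on the log2 scale. Each CELF6-OE library was thus above 0 and each Control library below 0. The split by coding length was chosen after the values were seen, and no test was made.

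**Figure D4:**
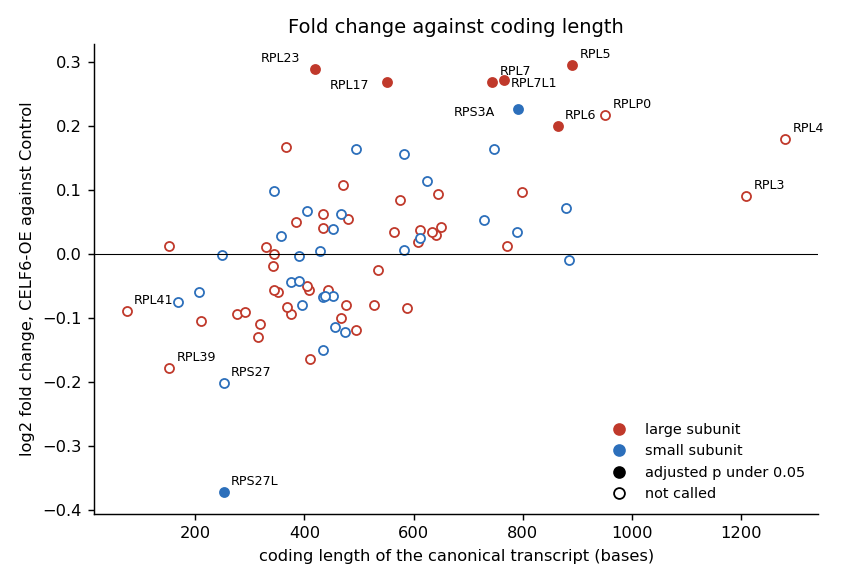
Log2 fold change of CELF6-OE against Control (vertical axis) against coding length in bases (horizontal axis) for the 82 members, red for the large and blue for the small subunit, filled where the adjusted p was under 0.05. Most members with more than 576 coding bases lie above 0, and RPL23 and RPL17 lie above 0 at shorter lengths.

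**Figure D5:**
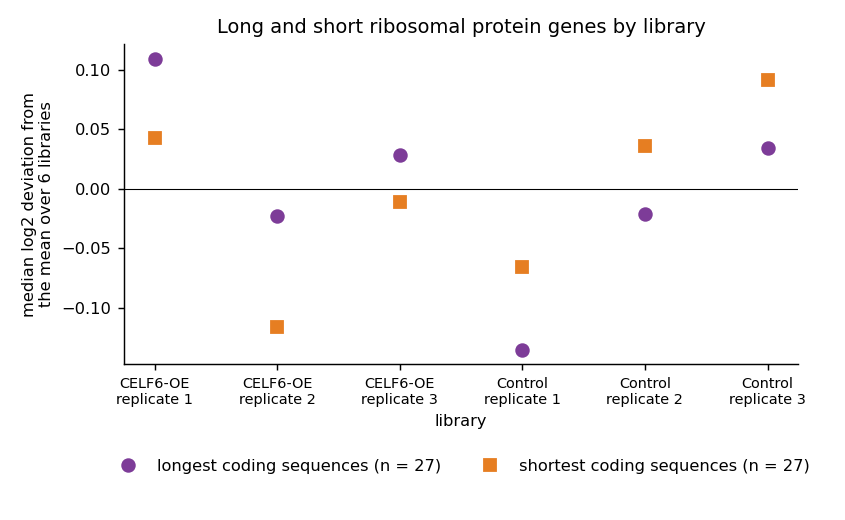
Median log2 deviation from the mean over 6 libraries (vertical axis) in each library (horizontal axis) for the 27 members with the longest (purple circles) and the 27 with the shortest (orange squares) coding sequences. The circle is above the square in the 3 CELF6-OE libraries and below it in the 3 Control libraries, while both move up and down together between replicates.

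Replicates of a group differed in the overall level of the members. Their median log2 deviation was 0.07, -0.07 and 0.002 in CELF6-OE and -0.09, 0.008 and 0.08 in Control, while that of all genes tested stayed between 0.005 and 0.012. GC content moved with the libraries in both groups. Spearman's rho between a member's deviation and its coding GC content was -0.17, -0.07 and -0.46 in CELF6-OE and -0.36, 0.20 and 0.59 in Control. Over 13237 genes with a coding sequence, the same coefficient was -0.11, -0.19 and -0.27 in CELF6-OE and -0.34, 0.16 and 0.57 in Control. With an offset for GC content, the fold changes of the members had a rho of 0.06 with coding GC content, compared with -0.25 without it. Under this offset, 6 members were called higher (RPL5, RPL6, RPL7L1, RPL17, RPL23 and RPLP0) and 3 lower (RPL39, RPS27 and RPS27L). RPL7 (adjusted p = 0.0676 in edgeR) and RPS3A (adjusted p = 0.146) lost their call. Over all genes, 1974 were called higher and 2550 lower with the GC offset, compared with 1025 and 1820 without it. With the offset, the share called higher was smaller among the members than among all genes. Without it, the order was the reverse (8.54% of members, against 6.47% of all genes).

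The share of counts on ribosomal protein genes did not differ beyond the spread between replicates. The members took 11.1%, 10.3% and 10.7% of all counts after the CELF6 plasmid, compared with 9.92%, 10.4% and 10.7% in Control. The means differed by 0.34 percentage points, which was smaller than the SD within either group (p = 0.5, two-sided exact permutation test). The ratio of summed FPKM, large to small subunit, was 1.36 ± 0.0073 (SD, n = 3) in CELF6-OE and 1.36 ± 0.0099 in Control (p = 0.6, exact permutation test). With a geometric mean over members in place of the sum, which gives each gene the same weight, the ratio was 0.777 ± 0.0041 in CELF6-OE and 0.762 ± 0.0044 in Control. The ratio of summed counts was 1.46 ± 0.0052 in CELF6-OE and 1.45 ± 0.0069 in Control. In both of these versions the groups were separate, at the smallest p of the design (p = 0.1, exact permutation test).

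The 3 related genes given here from outside the naming rule were not called. FAU, which encodes RPS30 as a fusion protein, RPL36AL and RACK1, a scaffold of the small subunit, had log2 fold changes of -0.08 ± 0.073, -0.08 ± 0.061 and 0.10 ± 0.080, and all of their groups overlapped. At an unadjusted p under 0.05, edgeR, DESeq2 and limma-voom gave 0 of these 3.

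Other genes of the translation machinery were counted in the same fit. Of 37 translation initiation factors, 8 were up-regulated (21.6%, against 6.47% of all genes), with a median log2 fold change of 0.09. EIF4B, which assists the helicase of the cap complex, measured 90.8, 90.6 and 84.8 FPKM in CELF6-OE and 69.5, 65.4 and 58.5 in Control (log2 fold change 0.43 ± 0.066, adjusted p = 0.00120 in edgeR), and EIF4G2, a scaffold of cap-independent initiation, measured 154, 166 and 147 against 130, 118 and 106 (0.37 ± 0.072, adjusted p = 0.00515). Of 53 ribosome biogenesis factors, 9 were up-regulated (17.0%), with a median of 0.12 and 49 of 53 above 0. Of all 15847 genes tested, 8182 were above 0. Among the 9 up-regulated factors were POLR1E, a subunit of RNA polymerase I (0.31 ± 0.075), and DKC1, the pseudouridine synthase of box H/ACA particles (0.25 ± 0.064). Of 10 elongation factors and other TOP mRNAs, 3 were up-regulated, including the poly(A)-binding protein gene PABPC1 (0.26 ± 0.069) and HNRNPA1 (0.21 ± 0.060), and of 17 regulators of TOP mRNAs and mTOR, 1 was, the S6 kinase gene RPS6KB2 (0.28 ± 0.088, adjusted p = 0.0485 in edgeR). In these 4 lists, 0 genes were called lower, against 11.5% of all genes. At an unadjusted p under 0.05 each of edgeR, DESeq2 and limma-voom also gave 0 lower, against 18.0% of all genes in edgeR. Whether a list differs from the members was not tested.

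Mitochondrial ribosomal protein genes encode the proteins of the separate ribosome of that organelle. Of 78, 7 were up-regulated (8.97%, against 6.47% of all genes) and 2 down-regulated (2.56%, against 11.5%), with a median of 0.04. MRPL3 (log2 fold change 0.29 ± 0.060, adjusted p = 0.00697 in edgeR) and MRPS10 (0.35 ± 0.073, adjusted p = 0.00711) rose, and MRPL17 (-0.32 ± 0.075, adjusted p = 0.0157) and MRPL40 (-0.25 ± 0.068, adjusted p = 0.0268) fell.

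Reads that could belong to processed pseudogenes are a limit of any count on ribosomal protein genes, since only uniquely placed reads were counted. The table held 280 ribosomal protein pseudogenes, 45 of which passed the filter, and their counts summed to 0.203% to 0.240% of those on the members in each library. The share was highest for RPS2, whose 10 pseudogenes had 3.35% of its count. RPS20P22 was the 1 pseudogene called, at 0.25, 0.33 and 0.32 FPKM in CELF6-OE and 0.06, 0.12 and 0.12 in Control (log2 fold change 1.57 ± 0.39, adjusted p = 0.0195 in edgeR). With DESeq2, 0 pseudogenes were called.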

How the data were processed

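RNA from 3 CELF6-OE and 3 Control libraries of A549 cells was analysed, and each library was assigned to its group by the sample labels. The members and gene lists were chosen with earlier results of these data known. The authors trimmed and filtered reads with FASTX-Toolkit 0.0.13, mapped them to GRCh38 by TopHat2, and deposited counts of uniquely placed reads per gene, without normalization. The authors also deposited FPKM values from the same reads. The program that counted reads, the strand option and the gene annotation used are not given in the sources used here. Reads that match a gene and a near-identical copy have no unique place and were not counted, so the values of genes with close copies can be too low.

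Counts of the 15847 genes kept by filterByExpr (minimum count 10) were scaled with TMM and tested in edgeR 4.0.16 (R 4.3.3, glmQLFit and glmQLFTest), CELF6-OE against Control, with Benjamini-Hochberg adjustment and a prior count of 0.125. Calls needed an adjusted p under 0.05, and the rule of the study's methods (p under 0.01, 1.5-fold) was a second one. The study's results text gives an FDR under 0.05 with the same fold, which was counted too. This filter was used since all 29889 genes gave infinite prior degrees of freedom, compared with 7.15. The biological coefficient of variation was 8.62%. The procedure was tested on simulated counts. These held no shift with GC content between libraries, so the test does not cover such shifts. Single values per library were compared with two-sided exact permutation tests (scipy 1.17.1), whose smallest p is 0.1. DESeq2 1.42.0, limma-voom (limma 3.58.1), other scalings, a replicate block and leaving out each library were alternatives. So were offsets for gene length, as implied by counts and FPKM, and for GC content (the GC offset was chosen after seeing the data). Gene coordinates and coding lengths are from GENCODE v44, in which 97.1% of identifiers were found, and start windows are from RefSeq. Named were the members with the highest FPKM or lowest counts, the called members, paralogs with their partners, stalk and MDM2-binding proteins, and members with roles outside the ribosome. RPL4 and the pair of RPL5 and RPL11 were added after their values were seen. Of other lists, the 2 genes called in each direction with the smallest p were named. Of the genes looked up, 1 is not reported here.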

Additional observations from a re-analysis of the deposited data

How the results depend on the processing

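The number of members called higher, 7 with all libraries, was 12 with library size only and 12 with the gene length offset. It was 3 with the replicate block and 0 by the study's rule. Among all genes, 1025 were called higher, and in these settings 1288, 1144, 720 and 216, in that order. With a library left out, 1 (without CELF6-OE replicate 1 or Control replicate 2) to 8 (without Control replicate 3) members were called higher. The same fits called 378, 287 and 1288 of all genes higher. The number of members called lower, 1 with all libraries, was 3 with no filter on low counts, with the gene length offset and with the GC offset. It was 0 by the study's rule, and 1 to 8 (without Control replicate 1) when a library was left out. Among all genes, 1820 were called lower, and in the first 3 of these settings 2232, 2022 and 2550. By the study's rule 936 of all genes were lower, and without Control replicate 1, 2370. In either direction, 2845 of all genes were called, 4524 with the GC offset and 1152 by the study's rule. With a library left out, it was 1319 (without Control replicate 2) to 4276 (without Control replicate 1). Of all called genes 36.0% were higher, and 45.9% with library size only. The ratio of large to small subunit was higher in CELF6-OE by 0.0038 as summed FPKM (-0.0016 without Control replicate 3), by 0.015 as a geometric mean and by 0.013 as summed counts. The median log2 fold change of the members ranged from -0.06 (without Control replicate 1) to 0.05. The cause was not tested. Whether replicate numbers pair the libraries is not given in the sources used here. Deviations of same-numbered libraries correlated at -0.07 to -0.01, which does not settle it. RPL5 and RPS27L kept their call in all 16 alternatives. For the 34 named members, 489 of the values under an alternative kept a call in the same direction or stayed uncalled within 1 SE of the reported value, 28 lost and 20 gained a call, and 7 stayed uncalled but moved by more than 1 SE. No called member changed sign.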
